A study of Saccharomyces cerevisiae with 11 samples.

Results

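The genes described here encode the machinery that degrades messenger RNA in budding yeast (Saccharomyces cerevisiae): the RNA exosome with its nucleases and cofactors, the TRAMP and Ski complexes, Ccr4-Not, the decapping and 5′ decay factors, the Lsm1-7 ring and Pan2-Pan3. A list of 40 genes was matched by NCBI Gene number to the 2 deposited expression tables, and 39 had a row in both, of 5936 rows in one table and 5931 in the other. PAT1, a decapping activator on chromosome III, was not analysed here. The list holds the partners of RRP43, an exosome subunit gene, and CDC39, the Ccr4-Not scaffold gene, which lie on chromosome III and are not members. The study sequenced polyadenylated RNA of strains labelled GD, SD or RD (3 libraries for each label) and of wild-type strains labelled control and ControlSYN3 (1 library each). Its title concerns essential genes brought together in clusters, and short recoded tags told transcripts of synthetic genes from wild-type ones. The labels do not spell out GD, SD or RD, and give no growth medium, time or ploidy. GD, SD and control are in one table and RD and ControlSYN3 in the other, and each table was tested by itself. Nothing says that the libraries of a group came from separate cultures, so the spread behind each p-value is only that between these samples. How much of it is technical is not known. Within RD it also holds a difference in mating-type genes, given below.

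The exosome is a ring of RNase PH-like subunits topped by RNA-binding cap subunits, and it threads RNA from its 3′ end into the nuclease Dis3. In the nucleus it works with Rrp6 and with TRAMP, which tags RNA with short poly(A) tails, and in the cytoplasm with the Ski complex. Messenger RNA decay in yeast usually begins with shortening of the poly(A) tail by Pan2-Pan3 and Ccr4-Not, after which the Lsm1-7 ring and Dhh1 promote decapping by Dcp1-Dcp2 and Xrn1 digests the body from the 5′ end.

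Values are FPKM, fragments per kilobase of transcript relative to library size, so levels of different genes can be compared per length. Steps in the low values gave library depths of 17680000 to 20080000 fragments. A member had between 453 fragments (LSM7 in SD3) and 10156 (XRN1 in RD6) in a library, with a median of 1451, for which the counting error is 2.63%. No member shared a word of 50 bases with another place in the genome, so reads of the 39 had no long identical copy to be split with. RD1 stood apart from the other RD libraries by its mating-type genes. The summed level of 5 a-type mating genes was 4280 FPKM in RD1 and 30.5 to 50.4 FPKM in RD5, RD6 and ControlSYN3, and that of 3 alpha-type genes was 74.6 FPKM in RD1 and 7618 to 8441 FPKM in the others. Among the GD libraries, GD2 stood apart for several members, as described below. Growth-state lists also differed between groups. The summed level of 12 stress and stationary-phase genes was 2935 to 4247 FPKM in GD, 26905 to 37927 FPKM in SD, 9835 FPKM in control, 18684 FPKM in ControlSYN3, 19377 FPKM in RD1 and 13223 and 10672 FPKM in RD5 and RD6. For 16 ribosome biogenesis genes it was 2759 to 3103 FPKM in GD, 1415 to 1972 FPKM in SD, 3505 FPKM in control, 946 FPKM in ControlSYN3, 986 FPKM in RD1 and 2454 and 2178 FPKM in RD5 and RD6. The 16 did not share one direction in control. NOP56 stood at 826 FPKM there, against 266 to 368 FPKM in GD. RRP5 (30.5 FPKM), UTP10 (27.9 FPKM) and RPA135 (29.0 FPKM) were lower in control than in any GD or SD library. None of these 28 genes was at 0 in any library, and their part in the results below was not tested. The rows of the chromosome III partners had other patterns. No source used here says how recoded and wild-type copies were assigned, so these rows need not hold all transcripts of the genes. RRP43 stood at 58.0, 86.8 and 46.6 FPKM in the GD libraries, 409.7, 387 and 404 FPKM in SD and 58.4 FPKM in control, and was listed at 0 in ControlSYN3 against 76.9, 129 and 123 FPKM in RD. CDC39 stood at 7.53, 8.03 and 9.86 FPKM in GD, 32.5, 28.8 and 29.5 FPKM in SD, 9.39 FPKM in control, 4.34 FPKM in ControlSYN3, and 47.8, 58.3 and 65.6 FPKM across RD1, RD5 and RD6.

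The 39 members were moderately expressed genes spread over 13 chromosomes. Their median was 64.8 to 91.7 FPKM in the 11 libraries, against 51.5 to 74.1 FPKM for all rows. The Lsm genes were the highest class, with class medians of 172 to 370.4 FPKM in the 7 libraries of the first table. Of the classes with 5 or more genes, TRAMP and Ski was the lowest, with medians of 31.4 to 41.6 FPKM in that table. LSM3 had the highest mean over the 11 libraries (282 FPKM) and CAF130, a Ccr4-Not subunit gene, the lowest (16.9 FPKM). The median member varied less from library to library than the median row. The highest of the 7 libraries of the first table was 1.98 times the lowest for the median member and 2.44 times for the median of all rows. In the second table the figures were 1.29 and 1.55. SKI3 (1.22 times), SKI2 (1.23 times) and POP2 (1.30 times) varied least in the first table, and MTR3 (4.16 times), LSM7 (3.70 times), LSM5 (3.49 times) and AIR1 (3.43 times) most. These ratios are descriptions and were not tested.

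**Figure D1:**
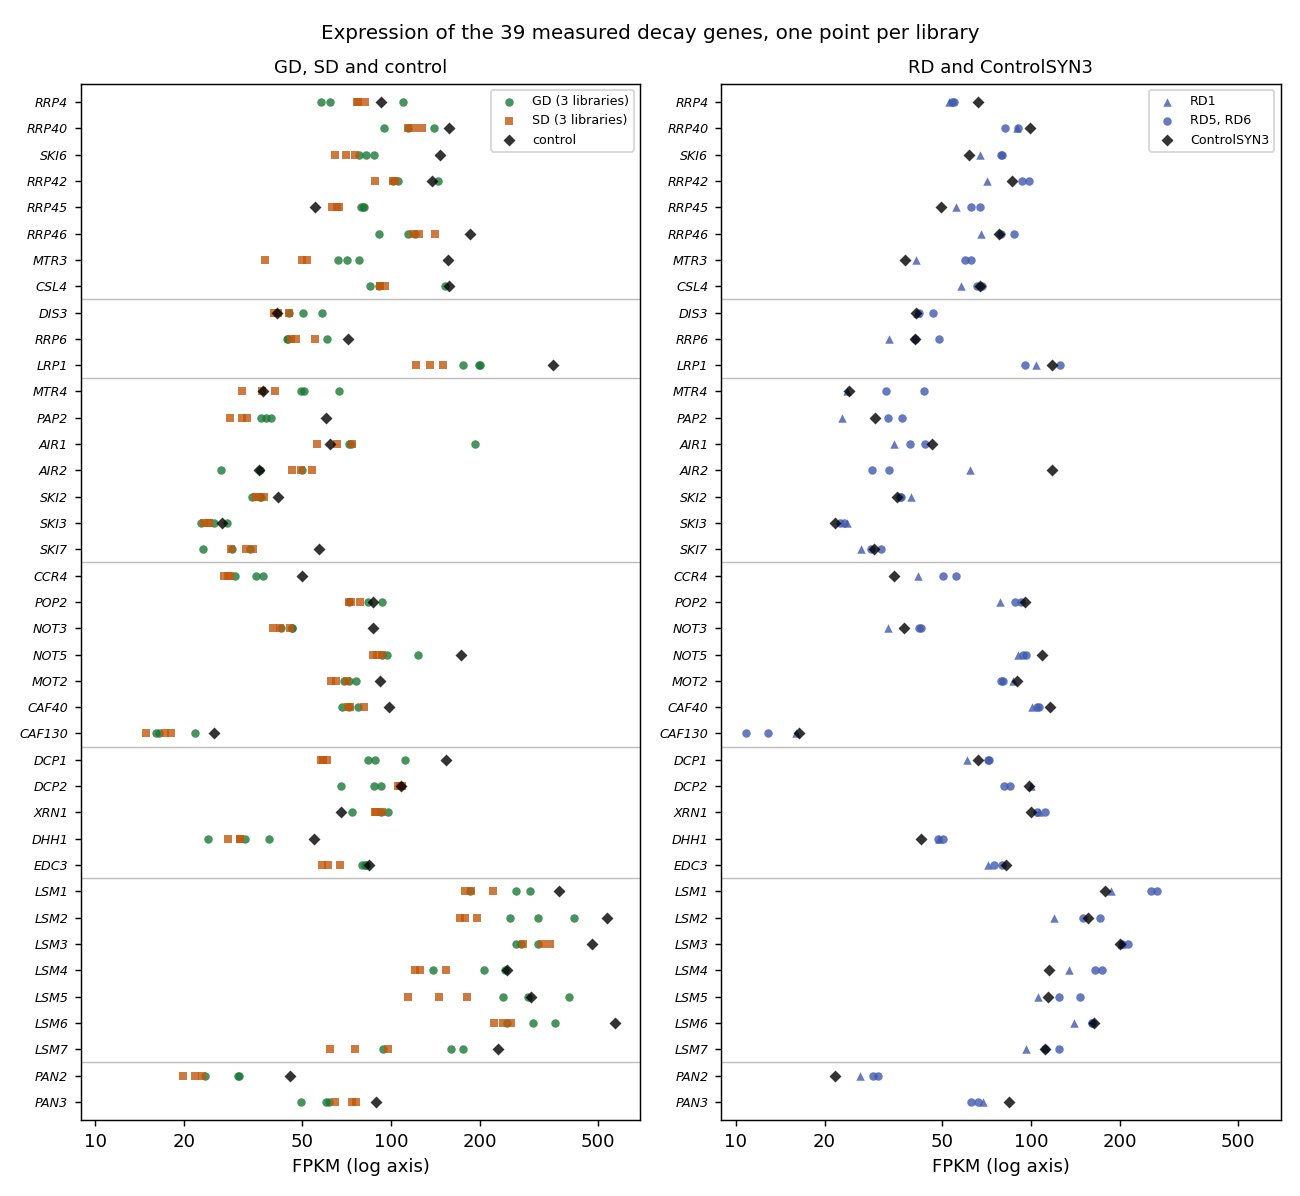
FPKM (log axis) of the 39 measured members in each library, ordered by complex, with one point per library and no averaging. The left panel shows GD, SD and control and the right panel RD and ControlSYN3; the control is the highest of its 7 libraries for 27 members, and AIR2 in ControlSYN3 stands at 118 FPKM against 28.8 to 61.8 FPKM in RD.

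Exosome genes are often grouped with ribosome biogenesis genes, whose promoters carry the PAC and RRPE elements. PAC was searched as GATGAG and RRPE as AAAATTTT, on both strands, in the 250 bases before the annotated start of each gene in the RefSeq R64 genome. By their letters the motifs cannot overlap each other. PAC letters were found in 11 of the 39 member windows (28.2%) and in 16.8% of 5783 windows of all protein-coding rows, and RRPE letters in 4 members (10.3%) and in 8.70% of all. All 16 ribosome biogenesis genes held both. Within the members, PAC letters were found for 4 of 8 exosome core genes, RRP40 and CSL4 among them, for DIS3 and LRP1, for MTR4, AIR1 and SKI2, for CCR4 and for DHH1, and for none of the 7 Lsm genes. DIS3 alone held both. A match of letters is a description, not a binding site, and a window without them says nothing of a factor. The windows below are those of some members named in the following results, with LSM5 as one without either motif. Capitals mark PAC letters (GATGAG, or CTCATC where the match is on the other strand) and, in DIS3, also RRPE letters. The windows lie at chrXV:285427-285676 on the minus strand for DIS3, chrXIV:214673-214922 on the plus strand for CSL4, chrX:342272-342521 on the plus strand for MTR4, chrIX:212006-212255 on the minus strand for AIR1 and chrV:462335-462584 on the plus strand for LSM5. Each is written 5′ to 3′ on the gene's strand.
DIS3: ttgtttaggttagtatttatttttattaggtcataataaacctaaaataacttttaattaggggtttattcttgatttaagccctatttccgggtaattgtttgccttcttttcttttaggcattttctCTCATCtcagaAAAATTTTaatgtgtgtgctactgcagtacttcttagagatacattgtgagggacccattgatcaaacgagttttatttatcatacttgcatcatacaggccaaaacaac
CSL4: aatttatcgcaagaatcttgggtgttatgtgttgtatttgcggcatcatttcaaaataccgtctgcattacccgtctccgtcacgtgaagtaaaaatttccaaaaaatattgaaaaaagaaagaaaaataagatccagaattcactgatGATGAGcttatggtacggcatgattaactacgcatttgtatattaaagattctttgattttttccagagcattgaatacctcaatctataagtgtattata
MTR4: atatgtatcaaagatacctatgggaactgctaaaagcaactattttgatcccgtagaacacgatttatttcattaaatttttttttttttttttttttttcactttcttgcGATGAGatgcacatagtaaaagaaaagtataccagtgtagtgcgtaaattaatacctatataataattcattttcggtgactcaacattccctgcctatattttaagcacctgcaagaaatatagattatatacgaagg
AIR1: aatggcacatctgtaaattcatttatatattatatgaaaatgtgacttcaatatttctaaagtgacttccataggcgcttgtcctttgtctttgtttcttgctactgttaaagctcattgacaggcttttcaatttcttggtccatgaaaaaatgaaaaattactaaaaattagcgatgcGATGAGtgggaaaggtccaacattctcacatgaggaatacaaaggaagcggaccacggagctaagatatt
LSM5: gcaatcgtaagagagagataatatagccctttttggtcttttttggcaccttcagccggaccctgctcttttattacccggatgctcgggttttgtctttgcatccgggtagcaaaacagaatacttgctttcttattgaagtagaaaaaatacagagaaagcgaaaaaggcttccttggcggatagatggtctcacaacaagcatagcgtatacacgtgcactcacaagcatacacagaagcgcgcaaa
The PAC letters began 121 bases before the start of DIS3, 101 before CSL4, 139 before MTR4 and 70 before AIR1.

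Measured against the control library, most called members were lower in both GD and SD strains. In GD, 15 of the 39 members (38.5%) passed an adjusted p of 0.05 in limma, a linear model fitted across all rows on log2(FPKM + 1), and are called lower or higher here, against 32.1% of all 5899 rows tested. RRP45 was higher (4.98% of all rows) and 14 were lower (27.1% of all rows): MTR3, SKI6, RRP46, LRP1, PAP2, SKI7, NOT3, NOT5, DCP1, DHH1, LSM3, LSM6, PAN2 and PAN3. In SD, 16 members (41.0%) passed, against 41.8% of all rows. All 16 were lower (31.4% of all rows) and none was higher (10.4% of all rows): MTR3, SKI6, LRP1, PAP2, SKI7, CCR4, NOT3, NOT5, DCP1, DHH1, LSM1, LSM2, LSM5, LSM6, LSM7 and PAN2. The share of members called was thus near that of all rows in both comparisons. The median member differed from control by -0.52 on the log2 scale in GD and -0.57 in SD, and the median row by -0.44 and -0.37. The members' median lay 0.08 below that of all rows in GD and 0.20 below in SD. Differences of single members from control, given below, include the shift of the median row unless stated otherwise. Both comparisons rest on the same single control library, which was assumed to vary as the strains do. The control was the highest of the 7 libraries for 27 of the 39 members, against 46.8% of all rows, and the lowest for RRP45 and XRN1, against 10.5%. With median-of-ratios scaling, which moved the median of all rows to -0.03 in GD and -0.00 in SD, 3 members were higher in GD (DIS3, MTR4, RRP45; 9.32% of all rows) and 2 lower (NOT3, SKI7; 8.98%), and 3 were higher in SD (AIR2, RRP45, XRN1; 18.7%) and 8 lower (DCP1, LRP1, LSM2, LSM6, MTR3, NOT3, PAP2, SKI6; 17.5%). In a fit of GD and control alone no member passed (limma; 8 at an unadjusted p under 0.05, while voom with all groups gave 13), and 3.95% of all rows did. The share of all rows called also moved when a library was left out. In GD, 6 members passed without GD1 (22.8% of all rows), 23 without GD2 (47.2%), 4 without SD1 (20.8%), 5 without SD2 (23.8%) and 5 without SD3 (19.9%). In SD, 25 passed without GD2 (55.2% of all rows). Each library pools the RNA of many cells, so a change in some cells and a change of RNA per cell cannot be told apart.

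**Figure D2:**
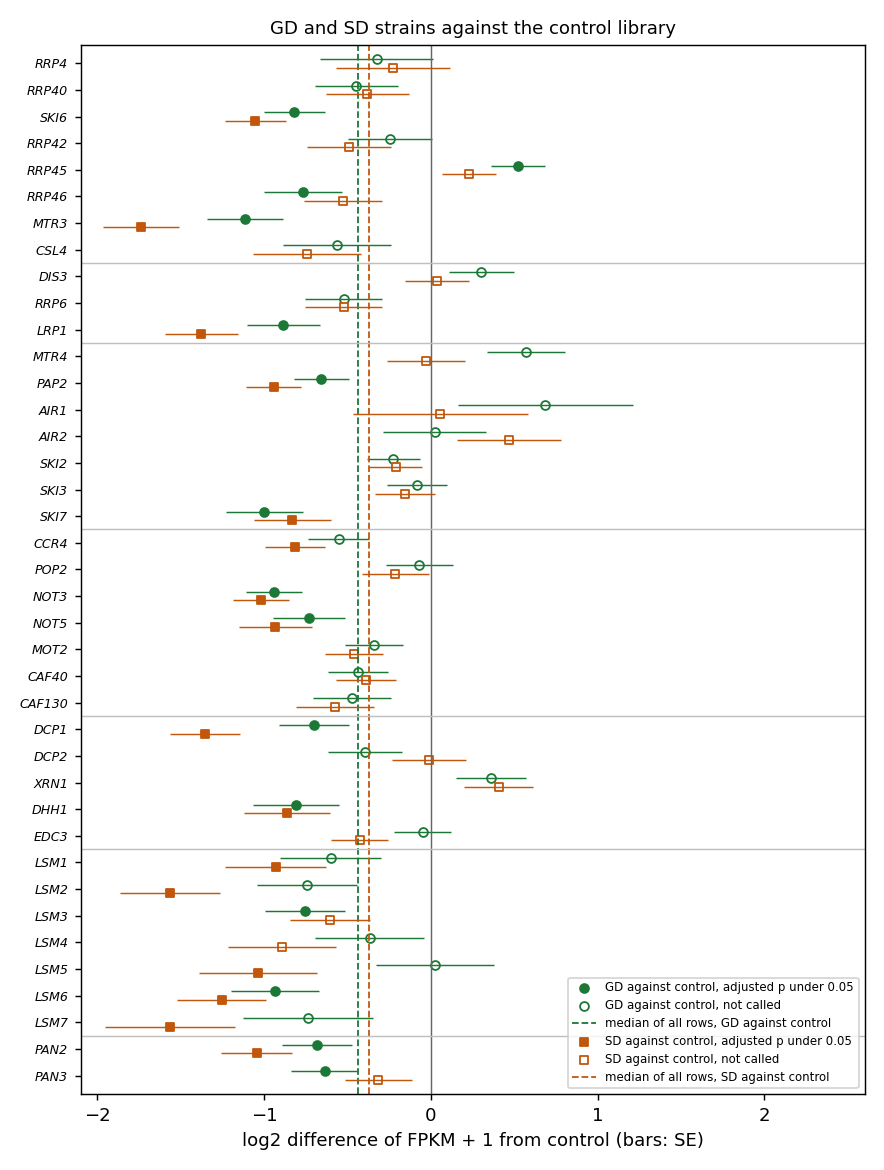
Difference of each member from the control library, as log2 of FPKM + 1 with SE bars, in GD (green circles) and SD (orange squares, 3 libraries each). Filled points passed a limma adjusted p of 0.05 and dashed lines give the median of all rows; MTR3 lies at -1.11 in GD and -1.74 in SD, and RRP45 is the filled point to the right of 0.

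Between GD and SD strains, every called member was higher in GD. These were 8 of the 39 (20.5%), where 40.8% of all rows were called in either direction and 20.4% were higher: MTR3, LRP1, MTR4, DCP1, EDC3, LSM2, LSM5 and LSM7, by 0.38 to 1.06 on the log2 scale. No member was called lower, against 20.4% of all rows. The median member was 0.20 higher in GD, where the median row differed by -0.04. The 3 GD libraries all lay above the 3 SD libraries for 14 members (27.9% of all rows): SKI6, RRP45, MTR3, DIS3, LRP1, MTR4, PAP2, CCR4, NOT5, DCP1, EDC3, LSM2, LSM5 and PAN2. They all lay below SD for DCP2 and PAN3 (28.5% of all rows). By complex, 3 of 7 Lsm genes, 2 of 5 decapping and 5′ decay genes, 1 of 8 exosome core genes, 1 of 3 nuclease and cofactor genes, 1 of 7 TRAMP and Ski genes and 0 of 7 Ccr4-Not genes were called (limma; 0 Ccr4-Not genes also at an unadjusted p under 0.05). In the same comparison all 12 stress genes were called lower in GD and 13 of 16 ribosome biogenesis genes higher, and the part of these states in the members' differences was not tested. The members' count, like that of all rows, moved when single libraries were left out. It was 15 without GD2 (12 higher; AIR2, DCP2 and RRP4 lower), where 54.6% of all rows passed, 4 without GD1 (30.5% of all rows), 3 without SD1 (26.6%) and 5 without SD2 (29.3%). Without SD3 it was 0 (limma; 5 at an unadjusted p under 0.05), where 21.4% of all rows passed, with values of 0.37 to 1.07 for the 8 members in that last fit.

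**Figure D3:**
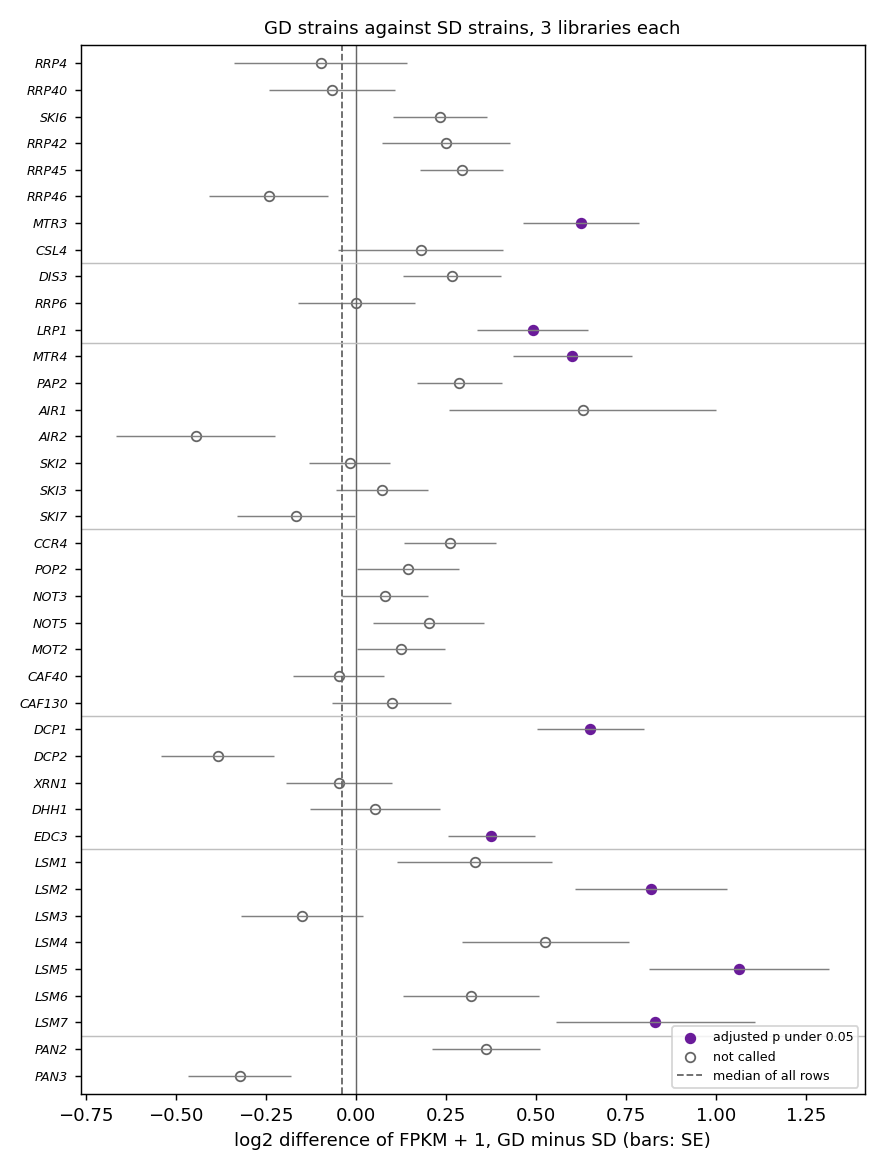
Difference between the GD and SD strains (3 libraries each) for each member, as log2 of FPKM + 1 with SE bars; values above 0 are higher in GD. Filled points passed a limma adjusted p of 0.05 and the dashed line is the median of all rows, at -0.04; the 8 filled points all lie to the right of it, from EDC3 (0.38) to LSM5 (1.06).

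MTR3, a ring subunit gene of the exosome (chrVII:805269-806021, R64, minus strand), showed the widest range of any member in the first table. It stood at 66.2, 77.7 and 71.2 FPKM in the GD libraries, 51.8, 50.1 and 37.6 FPKM in SD and 156 FPKM in control. The groups did not overlap, with control highest, GD between and SD lowest. GD differed from control by -1.11 ± 0.23 (SE) on the log2 scale (limma adjusted p = 0.0124), SD differed from it by -1.74 ± 0.23 (SE) (limma adjusted p = 0.00194), and GD lay above SD by 0.63 ± 0.16 (SE) (limma adjusted p = 0.0183). Of the other ring subunits, RRP45 (chrIV:1020747-1021664, plus strand) ran the other way. It stood at 81.3, 80.2 and 78.9 FPKM in GD, 66.9, 65.8 and 63.0 FPKM in SD and 55.5 FPKM in control, so that control was lowest and GD highest with no overlap. Its difference from control was 0.52 ± 0.16 (SE) in GD (limma adjusted p = 0.0443), or 0.96 above the median of all rows, and 0.23 ± 0.16 (SE) in SD (limma adjusted p = 0.285). The ratio of RRP45 to MTR3 was accordingly 0.355 in control and 1.03 to 1.68 in the GD and SD libraries.

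SKI6, the ring subunit also called Rrp41, stood at 87.7, 82.4 and 77.8 FPKM in GD, 70.3, 75.4 and 64.8 FPKM in SD and 146 FPKM in control. It was lower than control, with a difference of -0.82 ± 0.18 (SE) in GD (limma adjusted p = 0.0163) and, in SD, -1.05 ± 0.18 (SE) (limma adjusted p = 0.00434). The GD and SD libraries did not overlap, yet their difference missed the threshold (limma adjusted p = 0.185). RRP46, another ring subunit, stood at 114, 121 and 90.9 FPKM in GD, 125, 141 and 119 FPKM in SD and 185 FPKM in control, and was called only in GD against control (-0.77 ± 0.23 (SE); limma adjusted p = 0.0416); GD and SD overlapped. RRP42, the remaining ring member, was called in none of the comparisons of the first table. The cap subunits that contact RNA, RRP4, RRP40 and CSL4, were also not called there. RRP40, the exosome core gene with the highest mean, stood at 114, 139.6 and 94.9 FPKM in GD, 127, 114 and 119 FPKM in SD and 157 FPKM in control. RRP4 and CSL4 had SD libraries close together (76.8 to 81.7 FPKM and 91.8 to 95.6 FPKM) and 1 GD library, GD2, far above the other two.

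Among the nucleases and their partners, only LRP1 was called. LRP1, whose protein binds and stabilises Rrp6, stood at 198, 200.3 and 175 FPKM in GD, 136, 150.2 and 122 FPKM in SD and 353 FPKM in control. The order was the one seen for MTR3, control above GD above SD, with no overlap. Its differences were -0.89 ± 0.22 (SE) for GD against control (limma adjusted p = 0.0219), -1.38 ± 0.22 (SE) for SD against control (limma adjusted p = 0.00316) and, between GD and SD, 0.49 ± 0.15 (SE) (limma adjusted p = 0.0386). DIS3, the catalytic subunit, was not called; it stood at 50.4, 58.2 and 45.3 FPKM in GD, 45.1, 41.6 and 40.2 FPKM in SD and 41.2 FPKM in control. The 3 GD libraries lay above both other groups, though the nearest pair, GD3 and SD1, differed by less than 1 FPKM. RRP6, the nuclear exonuclease, stood at 44.7, 60.5 and 44.6 FPKM in GD, 47.6, 55.3 and 45.8 FPKM in SD and 71.4 FPKM in control, and GD and SD overlapped.

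In TRAMP, the helicase gene MTR4 (chrX:342522-345743, plus strand) separated GD from the other groups. It stood at 49.6, 66.6 and 50.6 FPKM in GD, 36.8, 40.4 and 31.4 FPKM in SD and 36.8 FPKM in control. The GD libraries were highest and the control lay within the SD range. GD exceeded SD by 0.60 ± 0.16 (SE) (limma adjusted p = 0.0231); the difference of 0.57 ± 0.23 (SE) from control missed the threshold (limma adjusted p = 0.0962). PAP2, the poly(A) polymerase also called Trf4, stood at 36.3, 39.2 and 37.9 FPKM in GD, 32.7, 31.3 and 28.6 FPKM in SD and 60.1 FPKM in control. It was lower than control in both strain groups, with differences of -0.66 ± 0.17 (SE) in GD (limma adjusted p = 0.0239) and -0.94 ± 0.17 (SE) in SD (limma adjusted p = 0.00456). With median-of-ratios scaling the difference in GD was -0.25 (limma adjusted p = 0.288), while PAP2 was still called lower in SD. In the cytoplasmic Ski complex, the helicase gene SKI2 and the scaffold gene SKI3 varied least of all members in the first table. SKI2 ranged from 33.9 to 41.6 FPKM over the 7 libraries and SKI3 from 22.9 to 27.8 FPKM. SKI7, which couples the Ski complex to the exosome, stood at 29.0, 33.4 and 23.0 FPKM in GD, 34.2, 32.4 and 28.9 FPKM in SD and 57.3 FPKM in control. It was lower than control, with differences of -1.0 ± 0.23 (SE) in GD (limma adjusted p = 0.0176) and -0.83 ± 0.23 (SE) in SD (limma adjusted p = 0.0236).

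The zinc-knuckle proteins Air1 and Air2 are paralogs that join TRAMP as alternatives, and their genes stood high in different libraries. AIR1 (chrIX:210923-212005, minus strand) stood at 72.1, 192 and 73.1 FPKM in GD, 73.6, 65.5 and 56.1 FPKM in SD, 62.2 FPKM in control, 46.1 FPKM in ControlSYN3 and 34.3, 38.8 and 43.8 FPKM in RD. GD2 was the one high library, and the other 10 lay between 34.3 and 73.6 FPKM. AIR2 (chrIV:144484-145518, minus strand) stood at 36.0, 50 and 26.7 FPKM in GD, 54.1, 49.6 and 46.4 FPKM in SD, 35.8 FPKM in control, 118 FPKM in ControlSYN3 and 61.8, 33.0 and 28.8 FPKM in RD. Its high library was ControlSYN3, with RD1 next. Neither gene passed in GD against SD (limma adjusted p = 0.21 for AIR1 and 0.142 for AIR2), and levels across the 2 tables were not tested. AIR1 stood at 2.0 to 3.85 times AIR2 in the GD libraries, 1.21 to 1.36 times in SD and 1.74 times in control. In ControlSYN3 and RD1 the order was reversed, with ratios of 0.391 and 0.556, while RD5 and RD6 had 1.17 and 1.52.

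**Figure D4:**
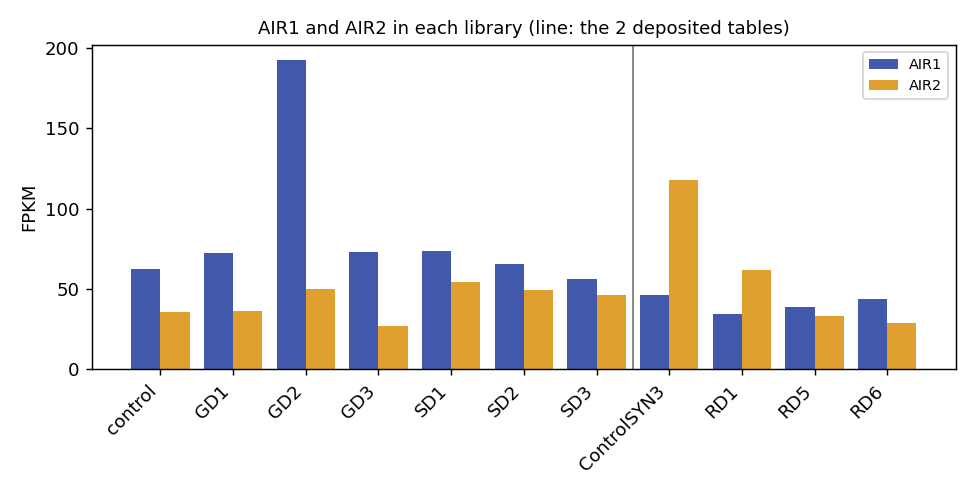
FPKM of the paralogs AIR1 and AIR2 in each of the 11 libraries, one bar per library starting at 0; the vertical line parts the 2 deposited tables, which were not compared by a test. AIR1 peaks in GD2 at 192 FPKM and AIR2 in ControlSYN3 at 118 FPKM.

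Of the 7 Ccr4-Not genes, 2 were called lower than control in GD (28.6%, against 27.1% of all rows) and 3 in SD (42.9%, against 31.4%). None was called in GD against SD, where 40.8% of all rows were. NOT3 and NOT5 encode related subunits that bind the Cdc39 scaffold. NOT3 stood at 46.3, 46.2 and 42.3 FPKM in GD, 45.5, 42.2 and 39.8 FPKM in SD and 87.1 FPKM in control, a difference of -0.94 ± 0.17 (SE) in GD (limma adjusted p = 0.00868) and -1.02 ± 0.17 (SE) in SD (limma adjusted p = 0.0037). NOT5 stood at 123, 93.1 and 96.9 FPKM in GD, 93.0, 89.6 and 87.1 FPKM in SD and 172 FPKM in control, a difference of -0.73 ± 0.22 (SE) in GD (limma adjusted p = 0.0392) and -0.93 ± 0.22 (SE) in SD (limma adjusted p = 0.0126). The control was highest for both, and NOT5 stood at 1.98 to 2.66 times NOT3 in the 7 libraries. CCR4, the main deadenylase gene, stood at 36.8, 29.6 and 35.0 FPKM in GD, 27.1, 28.6 and 28.1 FPKM in SD and 49.9 FPKM in control. It was called in SD against control (-0.82 ± 0.18 (SE); limma adjusted p = 0.0107) and not in GD (-0.55 ± 0.18 (SE); limma adjusted p = 0.0527), and the difference between GD and SD also missed the threshold (limma adjusted p = 0.142). POP2, the second deadenylase gene of the complex, stayed between 72.0 and 93.4 FPKM. MOT2, the ubiquitin ligase gene also called Not4, CAF40 and CAF130 were not called in these comparisons. For the 7 genes, differences of GD from SD ran from -0.05 to 0.26 with SE of 0.12 to 0.17.

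In decapping, the activator gene DCP1 (chrXV:44938-45633, plus strand) and the catalytic gene DCP2 had different orders of groups. DCP1 stood at 88.4, 83.3 and 111 FPKM in GD, 60.6, 58.0 and 59.1 FPKM in SD and 153 FPKM in control. Control was highest, GD between and SD lowest, with no overlap, and the SD libraries lay within 3 FPKM of each other. The differences were -0.70 ± 0.21 (SE) for GD against control (limma adjusted p = 0.04), -1.35 ± 0.21 (SE) for SD against control (limma adjusted p = 0.00296) and, between GD and SD, 0.65 ± 0.15 (SE) (limma adjusted p = 0.0122). DCP2 stood at 87.5, 92.5 and 67.7 FPKM in GD, 109, 105 and 107 FPKM in SD and 108 FPKM in control. Here the GD libraries lay below SD and control, without reaching the threshold (-0.38 ± 0.16 (SE) between them; limma adjusted p = 0.0863). EDC3, an enhancer of decapping, stood at 79.8, 82.3 and 81.4 FPKM in GD, 67.1, 58.6 and 61.4 FPKM in SD and 84.0 FPKM in control. The GD libraries were close to control, and exceeded SD by 0.38 ± 0.12 (SE) (limma adjusted p = 0.0412). DHH1, the helicase gene that promotes decapping, stood at 32.0, 24.04 and 38.6 FPKM in GD, 30.8, 28.01 and 30.8 FPKM in SD and 55.1 FPKM in control, and was lower than control, at -0.81 ± 0.26 (SE) in GD (limma adjusted p = 0.0467) and -0.86 ± 0.26 (SE) in SD (limma adjusted p = 0.0303). XRN1, the 5′ to 3′ exonuclease gene, stood at 97.3, 73.8 and 92.1 FPKM in GD, 88.6, 93.3 and 88.3 FPKM in SD and 67.7 FPKM in control. It was lowest in control, the reverse of most members, with differences of 0.36 ± 0.21 (SE) in GD and 0.41 ± 0.21 (SE) in SD that missed the threshold (limma adjusted p = 0.213 and 0.154).

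The Lsm1-7 ring binds the shortened 3′ ends of messenger RNA, and all its subunits but Lsm1 also serve in the nuclear ring that holds Lsm8 in its place. Of all classes, the Lsm genes had the median farthest below control in SD. It was -1.04 in SD, 0.67 below the median of all rows, with 5 of 7 genes called lower against 31.4% of all rows. With median-of-ratios scaling LSM2 and LSM6 were called lower, 2 of 7, against 17.5% of all rows. In GD it was -0.73, 0.30 below the median of all rows. LSM3 and LSM6 were called lower there (2 of 7, against 27.1% of all rows), neither with median-of-ratios scaling. The Lsm genes are among the shortest members, and XRN1 is the longest. The part of gene length in the distance of the Lsm genes from the single control library was not tested. LSM5 (chrV:462585-462866, plus strand) stood at 239, 291 and 399 FPKM in GD, 181, 115 and 145 FPKM in SD and 298 FPKM in control. The control lay inside the GD range and above every SD library. GD exceeded SD by 1.06 ± 0.25 (SE) (limma adjusted p = 0.0133), and SD differed from control by -1.04 ± 0.35 (SE) (limma adjusted p = 0.0484). LSM5 overlaps the annotated gene YER145C-A over 239 bases, and no source used here says whether strand was kept, so reads of the shared stretch cannot be told apart. That gene stood at 51.5 to 66.3 FPKM in GD, 33.3 to 34.7 FPKM in SD and 64.3 FPKM in control, and its part in the LSM5 values was not tested.

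LSM2 stood at 314, 253 and 417 FPKM in GD, 195, 178 and 172 FPKM in SD and 538 FPKM in control. The 3 groups did not overlap, in the order control, GD, SD. LSM2 was not called in GD against control. SD differed from control by -1.56 ± 0.30 (SE) (limma adjusted p = 0.00617) and GD lay above SD by 0.82 ± 0.21 (SE) (limma adjusted p = 0.0188). LSM7 stood at 176, 93.8 and 159.6 FPKM in GD, 75.4, 97.9 and 62.2 FPKM in SD and 230.3 FPKM in control. GD2 reached down into the SD range, and the other GD libraries lay above it. Its differences were -1.57 ± 0.39 (SE) for SD against control (limma adjusted p = 0.0158) and, between GD and SD, 0.83 ± 0.28 (SE) (limma adjusted p = 0.0457). LSM6 stood at 246, 357 and 301 FPKM in GD, 255, 223 and 239.9 FPKM in SD and 571 FPKM in control, a difference from control of -0.94 ± 0.27 (SE) in GD (limma adjusted p = 0.0347) and -1.25 ± 0.27 (SE) in SD (limma adjusted p = 0.00884). LSM1, the subunit that marks the cytoplasmic ring, stood at 295, 185 and 265 FPKM in GD, 177, 221 and 186 FPKM in SD and 370.4 FPKM in control, and was called in SD against control (-0.93 ± 0.30 (SE); limma adjusted p = 0.042). LSM3, the member with the highest mean, stood at 313, 276 and 265 FPKM in GD and 323, 346 and 279.6 FPKM in SD, which overlapped, and 479.7 FPKM in control. GD against control was -0.75 ± 0.24 (SE) (limma adjusted p = 0.0475) and SD against control -0.61 ± 0.24 (SE) (limma adjusted p = 0.0778). LSM4 stood at 242, 139 and 205 FPKM in GD, 125, 153 and 121 FPKM in SD and 246 FPKM in control and was called in none of the 3 comparisons.

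The Pan2-Pan3 genes stood in opposite orders in GD and SD. PAN2, the deadenylase itself, stood at 30.3, 23.4 and 30.6 FPKM in GD, 21.8, 23.0 and 19.8 FPKM in SD and 45.5 FPKM in control. GD differed from control by -0.68 ± 0.21 (SE) (limma adjusted p = 0.0434) and SD by -1.05 ± 0.21 (SE) (limma adjusted p = 0.00736). PAN3, its partner that contacts the poly(A)-binding protein, stood at 60.1, 61.8 and 49.5 FPKM in GD, 64.7, 76.1 and 73.9 FPKM in SD and 89.1 FPKM in control. Its GD libraries were lowest, -0.64 ± 0.20 (SE) from control (limma adjusted p = 0.047), a call lost in 9 of 13 other settings. Neither gene passed in GD against SD (limma adjusted p = 0.0893 for PAN2 and 0.108 for PAN3), with every GD library above SD for PAN2 and below SD for PAN3.

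Library GD2 lay above GD1 and GD3 for most exosome and TRAMP genes and below them for most Lsm genes, a description of 1 library with no test. On the log2 scale GD2 exceeded the mean of the other two by 1.39 for AIR1, 0.86 for RRP4, 0.79 for CSL4, 0.67 for AIR2 and 0.48 for RRP42. It lay at -0.83 for LSM7, -0.68 for LSM4, -0.59 for LSM1, -0.53 for DHH1 and -0.52 for LSM2. GD2 was the highest GD library for 24 members (49.1% of all rows), among them 6 of 8 exosome core genes, all 3 nuclease and cofactor genes and all 7 TRAMP and Ski genes. It was the lowest for 10 (32.0% of all rows), among them 4 of 7 Lsm genes. The median difference was 0.28 for the 11 members with PAC letters and 0.07 for the 28 without. Of the 11, 9 lay above 0, while DHH1 (-0.53) and CCR4 (-0.27) lay below. Of the 28, 17 lay above 0. Over all rows the median difference was 0.22 for the 954 with these letters and 0.10 for the 4784 without. The part of PAC letters in these differences was not tested.

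**Figure D5:**
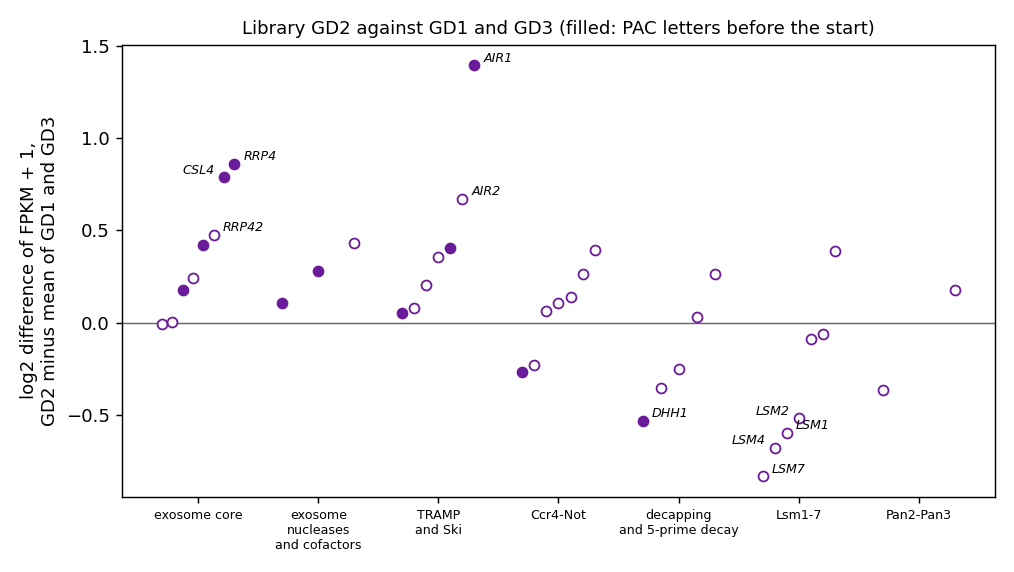
Difference of library GD2 from the mean of GD1 and GD3 for each member, as log2 of FPKM + 1, by complex; each point is a gene and there are no error bars, as GD2 is 1 library. Filled points hold the PAC letters before the start; AIR1 (1.39), RRP4 (0.86) and CSL4 (0.79) lie highest and LSM7 (-0.83) lowest.

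No member was called between the RD strains and ControlSYN3 (limma; 0.0% of all 5895 rows were called in either direction), and 1, AIR2, had an unadjusted p under 0.05, as did 671 rows. By voom on the recovered fragments 0 members passed and 1 had an unadjusted p under 0.05. The 3 RD libraries were not alike, as RD1 lay nearer to ControlSYN3 than to RD5 and RD6 for several members. Without RD1, 56.1% of all rows passed. That fit takes its spread from RD5 and RD6 alone, with 1 residual degree of freedom, and assumes that the lone ControlSYN3 library varies as they do. In that fit 8 members were higher in RD5 and RD6 (22.9% of all rows), namely MTR3, MTR4, CCR4, LSM1, LSM4, PAN2, RRP45 and SKI6, and AIR2 and PAN3 were lower (33.2% of all rows). The median member differed by 0.07 and the median row by -0.13. MTR3 stood at 37.5 FPKM in ControlSYN3, against 40.6, 62.5 and 59.9 FPKM across RD1, RD5 and RD6. RD1 and ControlSYN3 were low and RD5 and RD6 high, a difference of 0.69 ± 0.10 (SE) without RD1 (limma adjusted p = 0.00392) and 0.50 ± 0.32 (SE) with it (limma adjusted p = 0.464). The same split was seen for MTR4, at 24.1 FPKM in ControlSYN3, against 23.8, 43.5 and 32.3 FPKM across RD1, RD5 and RD6, with 0.61 ± 0.19 (SE) without RD1 (limma adjusted p = 0.0379) and 0.40 ± 0.38 (SE) with it (limma adjusted p = 0.579). CCR4 stood at 34.4 FPKM in ControlSYN3, against 41.2, 50.3 and 55.9 FPKM in RD, where every RD library was higher. It differed by 0.61 ± 0.12 (SE) without RD1 (limma adjusted p = 0.0084) and 0.49 ± 0.23 (SE) with it (limma adjusted p = 0.41).

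AIR2 had the largest difference of any member in the second table, at -1.90 ± 0.12 (SE) without RD1 (limma adjusted p = 0.00045) and -1.57 ± 0.50 (SE) with it (limma adjusted p = 0.41), and its per-library values are given above. LSM1 stood at 177 FPKM in ControlSYN3, against 186, 253 and 267 FPKM across RD1, RD5 and RD6, and LSM4 at 115 and 134, 165 and 173 FPKM. In both, RD5 and RD6 were highest. The differences without RD1 were 0.55 ± 0.12 (SE) for LSM1 (limma adjusted p = 0.0115) and 0.55 ± 0.11 (SE) for LSM4 (limma adjusted p = 0.00884). PAN2 stood at 21.8 FPKM in ControlSYN3, against 26.4, 29.1 and 30.4 FPKM in RD, and PAN3 at 84.3 and 68.6, 62.7 and 65.8 FPKM. ControlSYN3 was thus lowest for PAN2 and highest for PAN3, with 0.44 for PAN2 (limma adjusted p = 0.0215) and -0.39 for PAN3 (limma adjusted p = 0.0268) without RD1. RRP45 stood at 49.6 FPKM in ControlSYN3, against 55.5, 67.0 and 62.7 FPKM across RD1, RD5 and RD6, and SKI6 at 61.8 and 67.1, 79.5 and 78.9 FPKM. Both were lowest in ControlSYN3, with differences of 0.38 for RRP45 (limma adjusted p = 0.0298) and 0.35 for SKI6 (limma adjusted p = 0.0323) without RD1. RD5 and RD6 both lay above RD1 and ControlSYN3 for 16 members (29.6% of all rows) and below both for 5 (42.9% of all rows), AIR2, CAF130, DCP2, MOT2 and PAN3. In the fit without RD1, 14 of 16 ribosome biogenesis genes were higher and 5 of 12 stress genes lower, and the mating genes above set RD1 apart; the part of either was not tested.

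A list of 40 other decay factors, all with a row, was called in 22.5% of cases for GD against control, 42.5% for SD against control and 22.5% between GD and SD, where 32.1%, 41.8% and 40.8% of all rows were. Against control, 1 was higher and 8 lower in GD, led by REX2, an RNA exonuclease gene, at -1.34 (limma adjusted p = 0.00731), LSM8, of the nuclear ring, at -1.59 (limma adjusted p = 0.0124) and MPP6, a nuclear exosome cofactor gene, at -1.13 (limma adjusted p = 0.0124). In SD, 2 were higher (5.0%, against 10.4% of all rows) and 15 lower (37.5%, against 31.4%). The called genes were led by DCS2, at 2.6 (limma adjusted p = 0.00171), MPP6, at -1.47, and LSM8, at -1.86. Between GD and SD, 3 were higher in GD (REX4, STO1 and CBC2, 7.5%) and 6 lower (15.0%), each against 20.4% of all rows. The median of the list was 0.00 there. DCS1, the scavenger enzyme gene that clears cap fragments, and its paralog DCS2 led the latter. DCS2 stood at 99.3, 75.0 and 55.1 FPKM in GD, 565, 511 and 618 FPKM in SD and 91.9 FPKM in control, and GD differed from SD by -2.90 ± 0.23 (SE) (limma adjusted p = 0.000241). DCS1 stood at 159, 80.1 and 105 FPKM in GD, 267, 293 and 310.2 FPKM in SD and 311 FPKM in control, -1.39 ± 0.25 (SE) (limma adjusted p = 0.00528). Both were low in every GD library and high in every SD library, where control sided with GD for DCS2 and with SD for DCS1. REX4 stood at 44.3, 47.2 and 47.6 FPKM in GD and 29.2, 24.1 and 17.9 FPKM in SD, 0.97 ± 0.18 (SE) (limma adjusted p = 0.00605). In the second table none was called (limma; 2 at an unadjusted p under 0.05), and without RD1 6 were higher (15.0%, against 22.9% of all rows) and 10 lower (25.0%, against 33.2%), led by CAF16 (-1.51; limma adjusted p = 0.000679), REX4 (1.06; limma adjusted p = 0.00139) and DCS1 (-0.96; limma adjusted p = 0.00171).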

How the data were processed

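Polyadenylated RNA of 11 yeast libraries was measured; per the labels' protocols, frozen cells were ground, and Trizol and oligo-dT beads were used. Expression was deposited by the authors as FPKM in 2 tables, per the file headers. The submitters' processing notes name RSEM, Bowtie2, BWA and build R64, without versions or roles; no source used here says how recoded and wild-type copies were assigned, so a row need not hold all transcripts of a gene. FPKM are scaled within a library, so abundant genes can shift all others. Rows were matched by gene number to R64 (5774 of 5936 and 5770 of 5931). Columns headed MD1, MD5 and MD6 were matched by their numbers to the RD libraries, an inference.

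Differences were tested with limma 3.58.1 (R 4.3.3) on log2(FPKM + 1), which understates changes of low genes, with a trended, robust prior, group means fitted per table, rows with a mean of at least 1 FPKM, and Benjamini-Hochberg adjustment over all rows at 0.05. In low rows not used to find the steps, 214 of 242 values were within 0.12 of a whole fragment; voom on these fragments, an alternative chosen after the data were seen, called 1940, 2286, 2288 and 0 rows in the 4 comparisons. Other settings were other minimums, a pseudocount of 0.1, median-of-ratios scaling, plain estimates, fits of only 2 groups, a replicate block and omission of each strain library. Every member could be named, and of the other decay factors the 3 with the lowest p per comparison. The members and gene lists were chosen with earlier results of these data known. Promoters were read from the RefSeq R64 genome with Python 3.11.15; some windows are not reported here.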

Additional observations from a re-analysis of the deposited data

Results flagged for a closer look

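The difference between GD and SD strains, which share 1 control library, was itself tested by limma, in 3 libraries against 3. It passed for 8 of the 39 members (20.5%), where 40.8% of all rows passed. All 8 were higher in GD, as were 20.4% of all rows. The log2 differences, GD minus SD, were 0.65 for DCP1, 1.06 for LSM5, 0.63 for MTR3, 0.82 for LSM2, 0.60 for MTR4, 0.49 for LRP1, 0.38 for EDC3 and 0.83 for LSM7. All GD libraries lay above all SD libraries for each of these but LSM7, where GD2 (93.8 FPKM) lay below SD2 (97.9 FPKM). Of 14 other settings, the call was lost in 8 for EDC3 and 7 for LSM7, both including the replicate block and voom, in 5 for LRP1, also including the block, and in 4 for LSM2. MTR4 lost it in 2 (without SD1 or SD3) and DCP1, LSM5 and MTR3 in 1 (without SD3).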

How the results depend on the processing

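No called member reversed its sign under any of up to 14 settings. Many of these could not change the sign, as they leave the difference of group means as it was. These are other minimums, plain estimates, fits of only 2 groups and omission of a library outside the groups compared. Of 195 repeats of the 15 calls of GD against control 117 stayed past the threshold, of 208 repeats of the 16 calls of SD against control 188, and of 112 repeats of the 8 calls of GD against SD 83. In GD against control, with 13 other settings, the call was lost in 9 for PAN3. It was lost in 7 for DHH1, LSM3, NOT5, PAN2, RRP45 and RRP46, and in 1 for NOT3 and SKI7. The number of members called in GD against control was 15 (32.1% of all rows). It was 5 with median-of-ratios scaling (18.3% of all rows) and 4 to 23 when a library was left out (19.9% to 47.2%). In the limma fit of GD and control alone it was 0 (3.95% of all rows), with 8 at an unadjusted p under 0.05. By voom with all groups it was 13 (33.8% of all rows). In SD against control, 16 (41.8% of all rows) became 28 in the fit of SD and control alone, where 61.9% of all rows passed. The number was 12 to 25 when a library was left out. Without SD2 it was 12, where 32.9% of all rows passed, and without GD2 it was 25, where 55.2% did. In GD against SD, 8 (40.8% of all rows) became 0 to 15 when a library was left out (21.4% to 54.6% of all rows). With the replicate block it became 5 (DCP1, LSM2, LSM5, MTR3 and MTR4), where 33.3% of all rows passed. Same-numbered GD and SD libraries did not deviate together (correlations of -0.13, -0.18 and -0.17). These deviations are from means of 3 libraries and constrain each other, so they cannot settle whether the numbers pair libraries. In RD against ControlSYN3, 0 became 0 to 10 when a library was left out, with 10 only without RD1 (56.1% of all rows). The cause of these shifts was not tested; fits with fewer libraries have fewer degrees of freedom. Limits include the single control and ControlSYN3 libraries, the scaling of the control, the 3 libraries per strain group, and 1 residual degree of freedom without RD1. The member with the fewest fragments in a library had a counting error of 4.70%, and the part of depth in the calls was not tested. The part of gene length in the differences from control was not tested either.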

Other observations

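The balance between some partners also differed between libraries; apart from NOT3 and NOT5, these pairs were chosen after their values were seen, and no test was made. The ratio of XRN1 to DHH1 was 1.23 in control and 2.39 to 3.33 in the GD and SD libraries. In the second table it was 2.07 to 2.35. XRN1 is the longest member, and the part of gene length in this ratio was not tested. LSM1, of the cytoplasmic ring alone, stood to LSM2, shared by both Lsm rings, at 0.689 in control, 0.636 to 0.941 in GD, 0.909 to 1.24 in SD, 1.14 in ControlSYN3 and 1.55 to 1.69 in RD. NOT5 stood to NOT3 at 2.93 in ControlSYN3, 2.74 in RD1 and 2.25 and 2.27 in RD5 and RD6.

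TIS11 and CAF16, of the list of other decay factors, were picked for their values. TIS11, whose protein binds AU-rich elements and directs decay of messenger RNA when iron is scarce, stood at 141, 28.2 and 21.8 FPKM in GD, 20.8, 102 and 36.6 FPKM in SD, 212 FPKM in control, 17.9 FPKM in ControlSYN3 and 164, 23.2 and 16.2 FPKM across RD1, RD5 and RD6. One library stood high in each strain group, GD1, SD2 and RD1. CAF16, an ATPase gene linked to Ccr4-Not, stood at 196, 398 and 136 FPKM in GD, 285, 227 and 262 FPKM in SD, 120.0 FPKM in control, 263 FPKM in ControlSYN3 and 170.0, 97.8 and 86.3 FPKM in RD. GD2 was its highest library, as it was for AIR1.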
